A study of Homo sapiens with 6 samples.

Results

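Chaperones are proteins that help other proteins fold, and the 32 genes described here are those of the cytosolic chaperones HSP90 and HSP70, their helper proteins, a small heat shock protein, 3 chaperones of the mitochondrial matrix, 7 subunits of the cytosolic chaperonin TRiC/CCT, and HSF1, the transcription factor of the heat shock response. The members were chosen by gene symbol, as 32 of the 23686 genes in the tables, and all 32 were among the 14481 genes with enough reads to test. The data were RNA sequencing of 6 libraries from the established human non-small cell lung carcinoma lines A427 and HCC15. Each line had a control siRNA library (labelled Tax), an LGR6 siRNA 2 library and an LGR6 siRNA 4 library. All cells carried no engineered change (genotype WT in the labels), grew in RPMI medium with 5% serum and were collected 48 h after transfection. The labels give neither the siRNA sequences nor whether libraries came from separate cultures.

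HSP90 acts on kinases, steroid receptors and other nearly folded clients in a cycle driven by ATP. Co-chaperones set the steps of that cycle: some carry clients over from HSP70, some speed up or slow down the ATPase, and immunophilins such as FKBP4 (also called FKBP52) and FKBP5 (FKBP51) bind the C-terminal end of HSP90 and act on steroid receptors in opposite ways. When unfolded proteins build up, HSF1 is released from chaperones and switches on many of these genes together, through heat shock elements in their promoters.

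HSF1 binds inverted repeats of the letters GAA. The motif GAANNTTCNNGAA, searched on both strands and counted once where copies overlapped, was found in 6 of the 39 promoter windows that RefSeq (build GRCh38.p14, 250 bases before to 50 after a start) gave for 28 of the members, and in 0.490% of all 35116 windows. The 6 windows belonged to CHORDC1, DNAJA1, HSP90AA1, HSP90AB1, HSPA8 and HSPD1. The shorter repeat GAANNTTC, which overlaps it, was in 6.77% of all windows and in 13 of the 39. These included windows of HSPA1A, HSPA1B, DNAJB1, HSPB1, CCT2 and TCP1. The other short repeat, TTCNNGAA, was in 7.74% of all windows and in 9 of the 39, those of CCT4, HSPA9 and STIP1 included. The windows of AHSA1, BAG3, HSPE1 and HSPH1, counted below as HSF1 targets, held none of these motifs. HSF1, FKBP4, FKBP8 and ST13 had no entry. The promoter of CHORDC1 is shown because this gene rose with LGR6 siRNA 4, and those of the HSP90 genes because HSP90 is the partner of the co-chaperones below. Capitals mark the longest of these motifs, and each stretch is written 5′ to 3′ along the gene's strand. A match is a description of letters only.
CHORDC1, chr11:90223062-90223134, minus strand: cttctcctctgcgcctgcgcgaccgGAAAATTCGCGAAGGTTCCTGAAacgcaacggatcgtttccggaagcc
HSP90AA1, chr14:102087095-102087157, minus strand: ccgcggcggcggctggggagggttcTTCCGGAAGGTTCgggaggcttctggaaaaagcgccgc
HSP90AB1, chr6:44247753-44247868, plus strand: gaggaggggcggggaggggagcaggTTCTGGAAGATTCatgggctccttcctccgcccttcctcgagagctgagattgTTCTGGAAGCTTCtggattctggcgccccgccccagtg

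Libraries held 25546438 to 28987906 reads, and the members had 720 (FKBP5) to 135445 (HSP90AA1) reads in a library. LGR6 had 257 reads in the HCC15 control library, 39 with siRNA 2 and 77 with siRNA 4, and in A427 5, 0 and 0, too few to measure its silencing there. The carcinoma keratins KRT8 and KRT18 were at 275.57 TPM or more in every library, EPCAM at 27.57 or more and CDH1 at 3.11 or more. The epithelial keratins KRT7 and KRT19 were near absent in A427, at 0.20 and 0.38 TPM or less. In HCC15 they were at 614.15 and 12.05 TPM or more. The lung lineage genes NKX2-1 and SFTPB were at 0.11 TPM or less. NAPSA, also of that lineage, was at 0.57 to 1.36 TPM in A427 and at 0.31 or less in HCC15. Of 9 markers of leukocytes, endothelium and fibroblasts, CD68 was the highest, at 31.27 TPM or less. No 2 libraries shared line and siRNA. The spread behind most tests is therefore how far the siRNA effects differed between the lines. Where both siRNAs form a single group against the control, it is also how far the siRNAs differed. In the test of a difference in response between the lines, it is only how far the siRNAs differed within each line. None of these is a spread between replicates. Values are given as CPM after edgeR's TMM scaling, unless TPM is named, and runs of 3 values per line are in the order control, siRNA 2, siRNA 4.

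FKBP4 was 2.79 to 4.51 times as high in the LGR6 siRNA libraries as in the control library of the same line, and 3.49-fold higher with siRNA 2 and 3.57-fold higher with siRNA 4 over both lines. It encodes the immunophilin that helps steroid receptors reach the nucleus. The A427 libraries stood at 199.6, 683.7 and 556.5 CPM. The HCC15 libraries stood at 128.1, 458.4 and 578.3 CPM. Each of the 4 LGR6 siRNA libraries lay above both control libraries, with the lowest at 458.4 and the higher control at 199.6. The log2 fold change of FKBP4 was 1.80 with siRNA 2 (SE 0.18, 95% interval 1.40 to 2.21, adjusted p = 0.00327) and 1.84 with siRNA 4 (SE 0.18, interval 1.43 to 2.24, adjusted p = 0.00142; edgeR, Benjamini-Hochberg). Among all tested genes 22 had a larger log2 fold change with siRNA 2, and 22 with siRNA 4. These comparisons share the 2 control libraries. Without the HCC15 control library the change with siRNA 2 was 1.63, with an adjusted p of 0.0870 (edgeR). The siRNAs did not differ detectably in FKBP4, the difference of siRNA 4 from siRNA 2 being 0.03 (interval -0.36 to 0.43). The change in HCC15 minus that in A427 was 0.38 (interval -0.63 to 1.40), too wide to tell the lines apart. In bulk RNA, more RNA per cell and more cells that express a gene cannot be told apart.

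**Figure D1:**
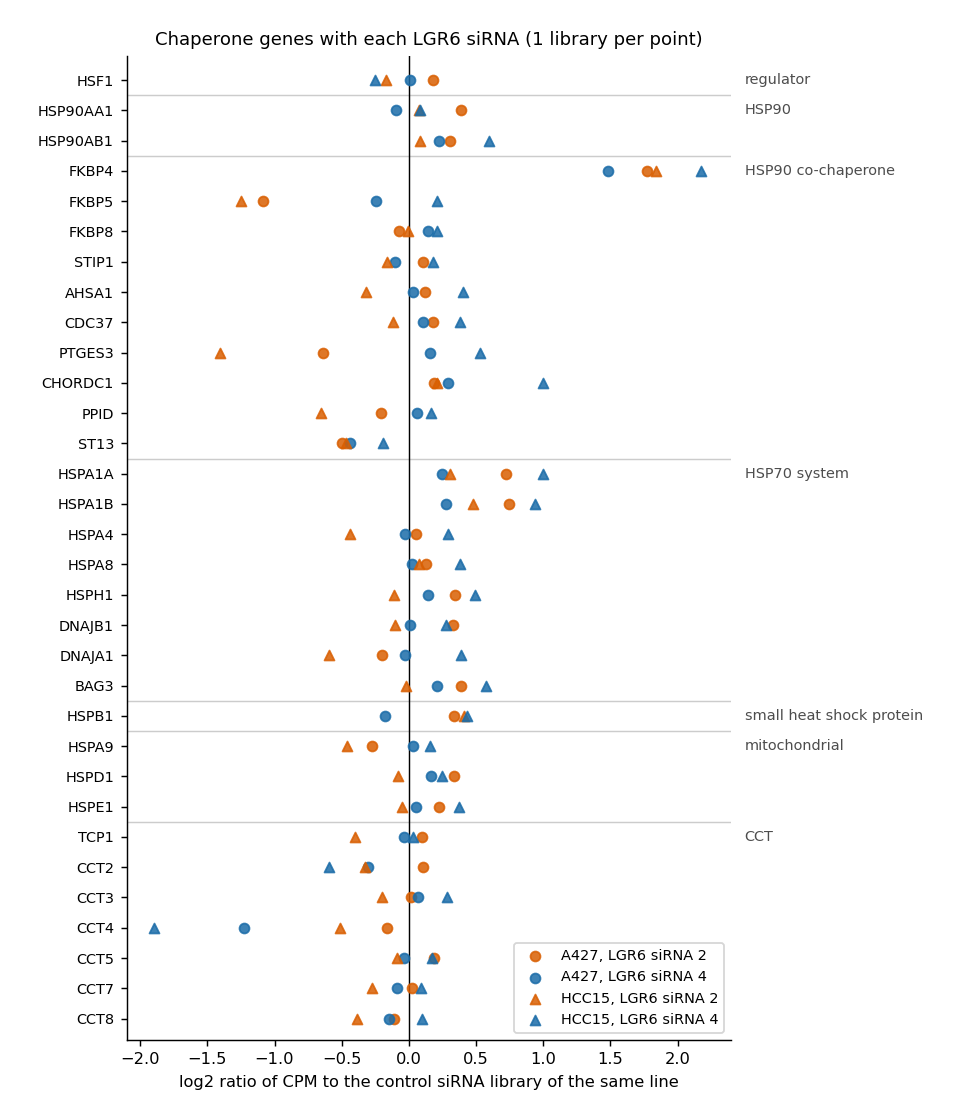
Log2 ratio of CPM in each LGR6 siRNA library to the control siRNA library of the same line, for the 32 genes grouped by role. Each point is 1 library, with circles for A427, triangles for HCC15, orange for siRNA 2 and blue for siRNA 4. The 4 points of FKBP4 lie between 1.48 and 2.17, to the right of every other gene's points.

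The question of the set was whether other HSP90 co-chaperones or HSF1 targets rose with FKBP4. With siRNA 2, 1 member rose (FKBP4) and 3 fell, beside 2.96% of all genes higher and 4.66% lower. With siRNA 4, 2 members rose (FKBP4 and CHORDC1) and 1 fell, beside 4.58% higher and 7.95% lower. Of the other 9 co-chaperones, 0 rose with siRNA 2 and 1 with siRNA 4. For both siRNAs, the unadjusted 95% intervals of all 31 other members lay wholly below the interval of FKBP4. FKBP4 was singled out because its rise in these same libraries was already known. Its place above the other members is therefore a description and not a test. The upper bound nearest to it belonged to HSPA1B with siRNA 2, at 1.08, and to HSPA1A with siRNA 4, at 1.19. In the single libraries the next highest member after FKBP4 was HSPA1B at 0.75 (A427, siRNA 2), CHORDC1 at 0.29 (A427, siRNA 4), HSPA1B at 0.48 (HCC15, siRNA 2) and CHORDC1 at 1.002 (HCC15, siRNA 4), as log2 ratios to the line's control.

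Taking both siRNAs as samples of 1 silenced group, FKBP4 was at 1.82 (SE 0.20, interval 1.35 to 2.30) with an adjusted p of 0.132, and 0 members passed, beside 0.0% of all genes (edgeR, Benjamini-Hochberg). At an unadjusted p under 0.05 this test had 4 members, which were FKBP4, HSPA1A, HSPA1B and ST13, and 1512 genes in all. DESeq2 called 1 member, FKBP4, beside 2.60% of all genes, and limma-voom called 0 of either. When the fit of line plus siRNA used for the single siRNAs was averaged over both siRNAs, 4 members passed. It is the same fit and no separate evidence. FKBP4 was the 1 that rose, beside 3.31% of all genes. CCT4, FKBP5 and ST13 were the 3 that fell, beside 5.65% (edgeR). The decrease of FKBP5 was seen with siRNA 2 only. That of CCT4 was larger with siRNA 4 and passed against the control only with it, as given below. When the response was compared between lines, 0 members passed beside 0.0% of all genes (edgeR). At an unadjusted p under 0.05 that test had 0 members, and DESeq2 and limma-voom called 0 genes.

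**Figure D2:**
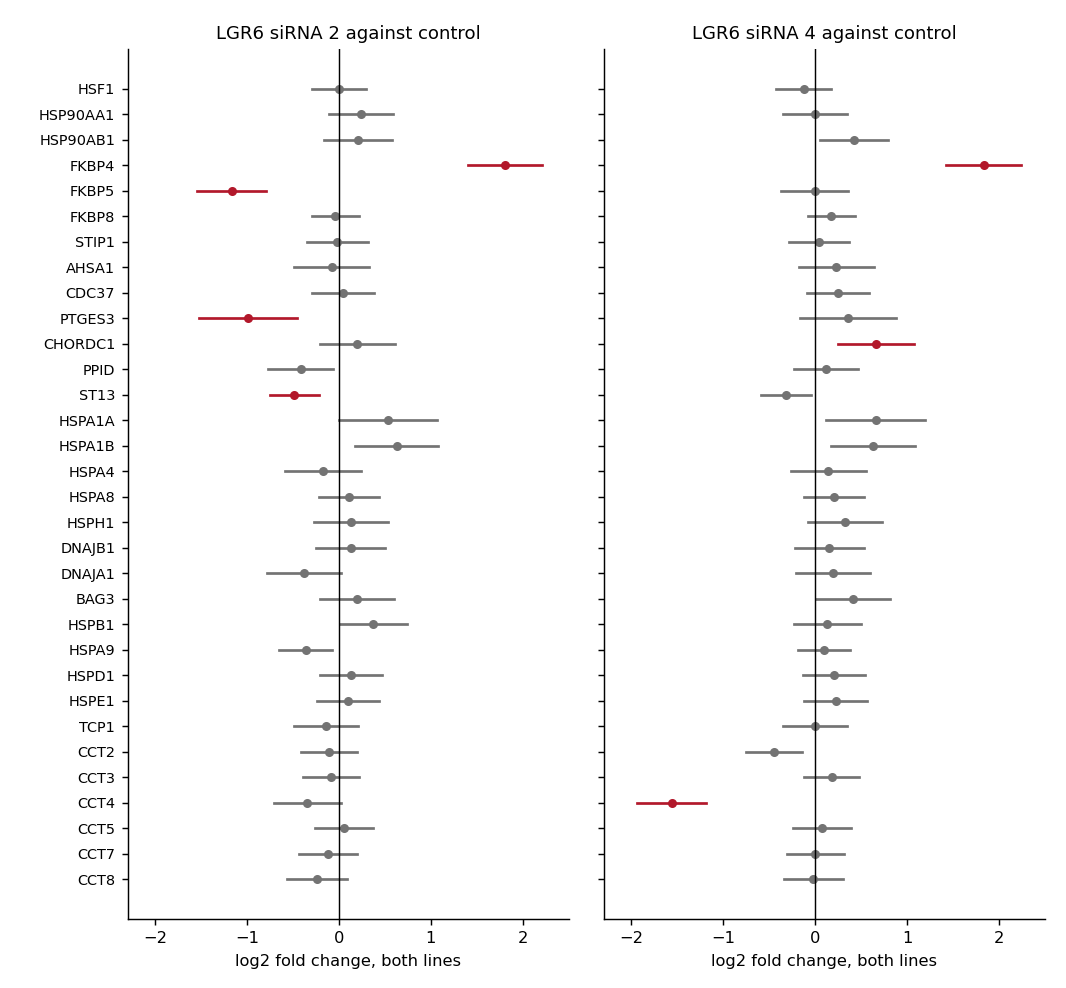
Fitted log2 fold change of each gene over both lines, with its unadjusted 95% interval, for LGR6 siRNA 2 (left) and siRNA 4 (right) against the control siRNA. Red marks an adjusted p under 0.05 in edgeR. FKBP4 is red on the right side of both panels, at 1.80 and 1.84.

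Neither HSP90 gene passed the test with either siRNA. HSP90AA1, the inducible form, had 3399, 4443 and 3181 CPM in A427 and 4503, 4749 and 4782 CPM in HCC15. Its log2 fold change was 0.24 with siRNA 2 (interval -0.11 to 0.58) and 0.00 with siRNA 4 (interval -0.35 to 0.34). HSP90AB1, the constitutive form, stood at 3522, 4362 and 4115 CPM in A427 and at 3258, 3456 and 4928 in HCC15. All 4 LGR6 siRNA libraries were above their line's control, by 0.08 to 0.60 on the log2 scale, with a fitted change of 0.20 for siRNA 2 (interval -0.17 to 0.57) and 0.42 for siRNA 4 (interval 0.05 to 0.79, adjusted p 0.130, edgeR). Per transcript length, FKBP4 was at 2.27%, 6.13% and 5.93% of the summed HSP90 TPM in A427. In HCC15 it was at 1.33%, 4.49% and 4.69%.

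FKBP5 fell with siRNA 2 and not with siRNA 4. It encodes the immunophilin that lowers the hormone affinity of the glucocorticoid receptor, and is itself a glucocorticoid-induced gene. Its A427 libraries had 58.4, 27.5 and 49.3 CPM, and its HCC15 libraries 118.0, 49.6 and 136.2 CPM. In each line the siRNA 2 library was the lowest. The log2 fold change of FKBP5 was -1.17 for siRNA 2 (SE 0.16, adjusted p = 0.00770), and was at -0.01 with siRNA 4 (interval -0.37 to 0.36). The difference of siRNA 4 from siRNA 2 was 1.16 (SE 0.16, adjusted p = 0.00362, edgeR). Against the control, the siRNA 2 change did not pass without the A427 control library (-1.09, adjusted p 0.0881), the HCC15 control library (-1.24, 0.109) or the HCC15 siRNA 2 library (-0.98, 0.0605), all by edgeR. The TPM of FKBP4 was 3.48, 25.4 and 11.5 times that of FKBP5 in A427. In HCC15 it was 1.10, 9.47 and 4.33 times as high.

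PTGES3, the p23 protein that stabilises the closed state of HSP90 on its client, was also lower with siRNA 2. A427 had 1037, 664.1 and 1157 CPM, and HCC15 892.3, 336.5 and 1285 CPM. The siRNA 2 library was the lowest and the siRNA 4 library the highest in each line. PTGES3 fell by 0.99 with siRNA 2 (SE 0.23, adjusted p = 0.0387), was at 0.36 with siRNA 4 (interval -0.16 to 0.89), and differed between the siRNAs by 1.35 (SE 0.23, adjusted p = 0.00802, edgeR). Relative to the summed TPM of the HSP90 genes, PTGES3 was at 24.4%, 12.3% and 25.5% in A427 and at 19.1%, 6.82% and 21.6% in HCC15. Without the HCC15 siRNA 2 library the siRNA 2 change was -0.55 with an adjusted p of 0.123. It was -1.09 without the A427 control library (0.214) and -0.90 without the HCC15 control library (0.323). The difference between the siRNAs was 0.98 without the HCC15 siRNA 4 library (adjusted p 0.0557, edgeR).

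ST13, the HIP protein that binds HSP70 and holds it in its ADP state, was lower than the line's control in all 4 LGR6 siRNA libraries. It stood at 309.0, 218.3 and 227.7 CPM in A427 and at 340.0, 245.3 and 297.5 in HCC15. No LGR6 siRNA library reached either control. ST13 fell by 0.49 with siRNA 2 (SE 0.12, adjusted p = 0.0442), and was at -0.32 with siRNA 4 (SE 0.12, adjusted p = 0.119). With every library kept, the adjusted p of ST13 with siRNA 2 was 0.0537 under RLE scaling and 0.0568 without the filter on low counts (edgeR). By limma it was 0.0506 on log2(TPM + 1) and 0.0536 on log2(TPM + 0.1). The siRNA 2 call was near the threshold and passed in 5 of 13 alternatives. It was lost without the A427 control library (adjusted p 0.416), the HCC15 control library (0.297), the HCC15 siRNA 2 library (0.176) or the A427 siRNA 2 library (0.0894, all edgeR), with changes of -0.55 to -0.42.

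CHORDC1 encodes an HSP90-binding protein with zinc-binding CHORD domains and is a known HSF1 target. It stood at 75.9, 86.4 and 92.9 CPM in A427 and at 161.5, 186.7 and 323.4 in HCC15. Within each line the siRNA 4 library was the highest, and the HCC15 one stood well apart from the rest. The log2 fold change of CHORDC1 was 0.66 for siRNA 4 (SE 0.18, adjusted p = 0.0468), and was at 0.20 with siRNA 2 (interval -0.21 to 0.61). The siRNA 4 value was 0.30 without the HCC15 siRNA 4 library (adjusted p 0.350), 0.48 without the HCC15 control library (0.448) and 0.85 without the A427 control library (0.127, all edgeR). With every library kept, the siRNA 4 change had an adjusted p of 0.0543 by limma-voom and 0.0535 without the filter on low counts (edgeR). By limma the adjusted p was 0.0651 on log2(TPM + 1) and 0.0724 on log2(TPM + 0.1). The siRNA 4 change passed in 6 of 13 alternatives. The difference between the siRNAs, 0.47 (interval 0.06 to 0.88), had an adjusted p of 0.113 (edgeR).

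**Figure D3:**
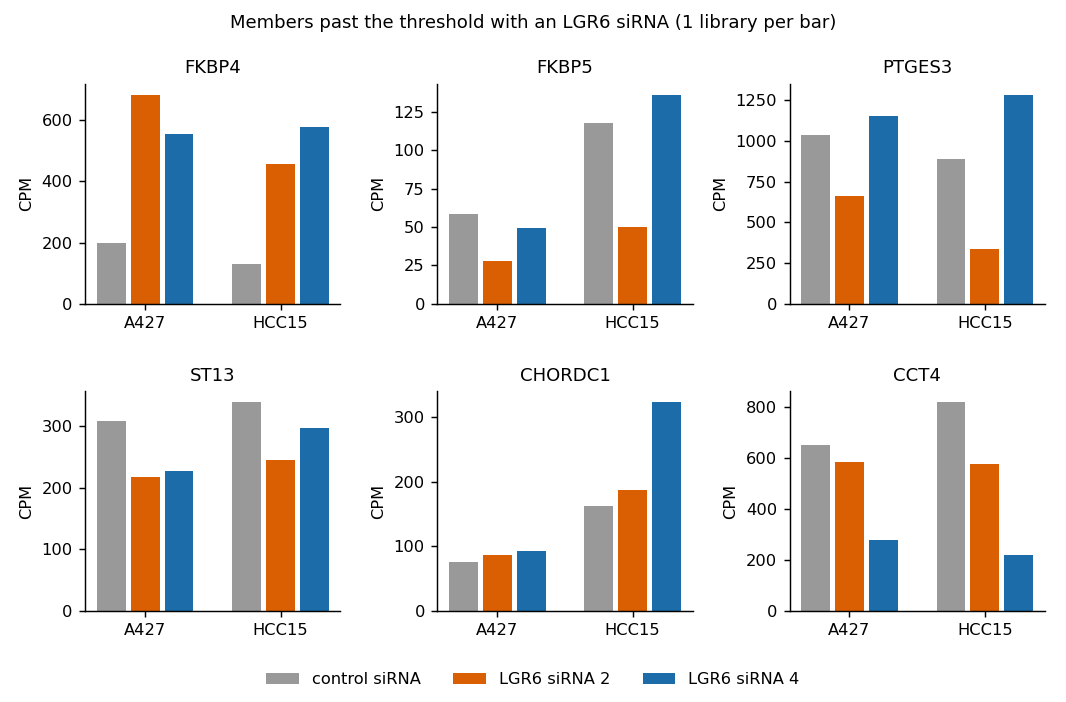
CPM of the 6 genes past the threshold with at least 1 LGR6 siRNA. Each bar is 1 library, with grey for the control siRNA, orange for siRNA 2 and blue for siRNA 4. FKBP4 is above the controls with both siRNAs in both lines, FKBP5 and PTGES3 are lowest with siRNA 2, and CCT4 is lowest with siRNA 4, at 279.5 CPM in A427 and 220.3 in HCC15.

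The remaining co-chaperones did not pass against the control with either siRNA. STIP1, the adaptor HOP that links HSP70 to HSP90, was at -0.02 with siRNA 2 (interval -0.35 to 0.31) and 0.04 with siRNA 4 (interval -0.29 to 0.37). AHSA1, which activates the HSP90 ATPase, was at -0.08 (interval -0.49 to 0.33) and 0.23 (interval -0.18 to 0.64). CDC37, the adaptor for kinases, was at 0.04 (interval -0.30 to 0.38) and 0.25 (interval -0.09 to 0.58). FKBP8, a membrane-anchored immunophilin of mitochondria, was at -0.04 (interval -0.30 to 0.22) and 0.18 (interval -0.08 to 0.43). PPID, the cyclophilin CYP40, was at -0.42 (interval -0.77 to -0.07, adjusted p 0.138) and 0.11 (interval -0.23 to 0.46). Its difference between the siRNAs was 0.53 (SE 0.15) with an adjusted p of 0.0488 (edgeR), and it passed in only 3 of 12 alternatives. The adjusted p was 0.0526 with RLE scaling, 0.0537 by limma-voom, 0.0583 without the filter on low counts, and 0.0627 and 0.0671 by limma on log2(TPM + 1) and log2(TPM + 0.1). The difference was 0.29 (0.304) lacking the HCC15 siRNA 2 library, 0.38 (0.303) lacking the HCC15 siRNA 4 library, and lacking either control library 0.54 (0.0923 for A427, 0.0945 for HCC15).

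HSPA1A and HSPA1B encode the stress-inducible HSP70 and are classic HSF1 targets. HSPA1A had 392.2, 647.7 and 466.2 CPM in A427 and 287.7, 354.9 and 575.2 CPM in HCC15. HSPA1B stood at 277.4, 465.6 and 335.9 CPM in A427 and at 263.7, 368.0 and 504.3 in HCC15. Both genes were above the line's control in all 4 LGR6 siRNA libraries, with siRNA 2 the higher in A427 and siRNA 4 the higher in HCC15. HSPA1A was at 0.54 (SE 0.23) with siRNA 2 and 0.66 (SE 0.23) with siRNA 4, with adjusted p of 0.201 and 0.106, and HSPA1B at 0.63 (SE 0.20) with each, with adjusted p of 0.0965 and 0.0761 (edgeR). The split between them is uncertain, because 72.6% of the 50-base stretches of the HSPA1A transcript also occur in HSPA1B (GENCODE 29). Summed as 1 gene, an alternative chosen after seeing the data, the pair was at 0.58 with siRNA 2 (adjusted p 0.143) and 0.64 with siRNA 4 (0.0920, edgeR). The HSPA1A values rested on single libraries. With siRNA 4 it was at 1.10 without the A427 siRNA 4 library (adjusted p 0.00814) and at 0.14 without the HCC15 one (0.743). With siRNA 2 it was at 0.10 without the A427 siRNA 2 library (adjusted p 0.860) and at 0.90 without the HCC15 one (0.0899, all edgeR).

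The other partners of HSP70 had smaller values, and none passed against the control. HSPA8, the constitutive HSP70, was at 0.10 (interval -0.22 to 0.43) with siRNA 2 and 0.21 (interval -0.12 to 0.53) with siRNA 4, and HSPH1, a nucleotide exchange factor of the HSP110 family, at 0.13 (interval -0.28 to 0.53) and 0.33 (interval -0.08 to 0.73). The J-domain protein DNAJB1, which brings clients to HSP70, was at 0.13 (interval -0.25 to 0.50) and 0.15 (interval -0.22 to 0.53). The exchange factor BAG3 was at 0.20 (interval -0.21 to 0.60) and 0.41 (interval 0.01 to 0.81, adjusted p 0.163, edgeR). DNAJA1 was at -0.38 (interval -0.79 to 0.02) and 0.20 (interval -0.21 to 0.60), and HSPA4, another HSP110 protein, at -0.18 (interval -0.59 to 0.23) and 0.15 (interval -0.26 to 0.55). The small heat shock protein gene HSPB1 was at 0.37 (interval 0.01 to 0.74, adjusted p 0.190) and 0.13 (interval -0.23 to 0.50). HSF1 mRNA stood at 92.7, 105.0 and 93.3 CPM in A427 and at 118.9, 105.5 and 99.7 in HCC15. It was the 1 member above its control with both siRNAs in A427 and below it with both in HCC15, and the test of that difference gave -0.31 (interval -1.12 to 0.50, unadjusted p 0.378, edgeR).

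As a group, 16 members are textbook HSF1 targets. The 15 other than FKBP4 had a median log2 fold change of 0.13 with siRNA 2 (12 of 15 above 0) and 0.22 with siRNA 4 (14 of 15 above 0), beside medians of -0.01 and -0.01 over all tested genes (48.2% and 49.4% above 0). Of these 15, 0 rose with siRNA 2 and 1, CHORDC1, with siRNA 4. Library by library, 14 of the 15 were above the control in A427 with siRNA 2, 11 with siRNA 4, 7 in HCC15 with siRNA 2 and 15 with siRNA 4. The median log2 ratios were 0.33, 0.06, -0.02 and 0.40 in the same order. The siRNA library with the higher values was thus a different one in each line. The 9 co-chaperones other than FKBP4 had medians of -0.08 with siRNA 2 (2 of 9 above 0) and 0.18 with siRNA 4 (7 of 9 above 0). These counts describe members that were picked with results known, and comparisons that share controls.

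The mitochondrial chaperones HSPD1 and HSPE1, the HSP60 and HSP10 of the matrix chaperonin, were at 0.13 (interval -0.21 to 0.47) and 0.09 (interval -0.25 to 0.43) with siRNA 2 and at 0.21 (interval -0.13 to 0.55) and 0.22 (interval -0.12 to 0.56) with siRNA 4. HSPA9, the mitochondrial HSP70 mortalin, stood at 1161, 961.2 and 1187 CPM in A427 and at 1365, 992.3 and 1523 in HCC15. The siRNA 2 library was the lowest in each line, at -0.36 against the control (SE 0.13, adjusted p 0.119), and siRNA 4 was higher than siRNA 2 by 0.46 (SE 0.13, adjusted p 0.0403, edgeR). That difference did not pass without the A427 control (0.47, adjusted p 0.133), A427 siRNA 4 (0.57, 0.0621), HCC15 control (0.47, 0.129), HCC15 siRNA 2 (0.34, 0.190) or HCC15 siRNA 4 library (0.35, 0.3005).

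Among the chaperonin subunits CCT4 fell with siRNA 4. TRiC/CCT is a double ring that folds actin, tubulin and other proteins, and each ring holds 1 copy of each subunit. A427 libraries had 653.9, 584.1 and 279.5 CPM of CCT4, and HCC15 libraries 822.3, 576.9 and 220.3 CPM. CCT4 was below the line's control in all 4 LGR6 siRNA libraries. The siRNA 4 libraries were at 42.7% and 26.8% of the line's control, below all the other libraries. The log2 fold change of CCT4 was -1.56 for siRNA 4 (SE 0.16, adjusted p = 0.00153), was at -0.35 with siRNA 2 (interval -0.71 to 0.02, adjusted p 0.226), and was lower with siRNA 4 than with siRNA 2, at -1.22 (SE 0.16, adjusted p = 0.00294, edgeR). The decrease with siRNA 4 passed in 13 of 13 alternatives, leaving out any of the libraries included, with changes of -1.82 to -1.30.

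The other 6 subunits among the members, TCP1, CCT2, CCT3, CCT5, CCT7 and CCT8, did not pass with either siRNA. CCT6A, a subunit outside the 32 genes, was at -0.02 (SE 0.16) and -0.13 (SE 0.16) with siRNA 2 and siRNA 4, and did not pass either. CCT2 was the lowest of them with siRNA 4, at -0.45 (interval -0.76 to -0.15, adjusted p 0.0616, edgeR), with 415.2, 447.2 and 336.9 CPM in A427 and 545.4, 434.9 and 362.0 in HCC15. TCP1, CCT5, CCT7 and CCT8 lay between -0.02 and 0.07 with siRNA 4, and CCT3 at 0.18. Within the summed TPM of the 7 member subunits, which leaves out CCT6A, CCT4 made up 15.7%, 13.9% and 7.78% in A427, and 14.96%, 13.1% and 4.35% in HCC15. The member subunit with the next smallest share with siRNA 4 was CCT2, at 11.5% in A427 and 8.76% in HCC15.

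**Figure D4:**
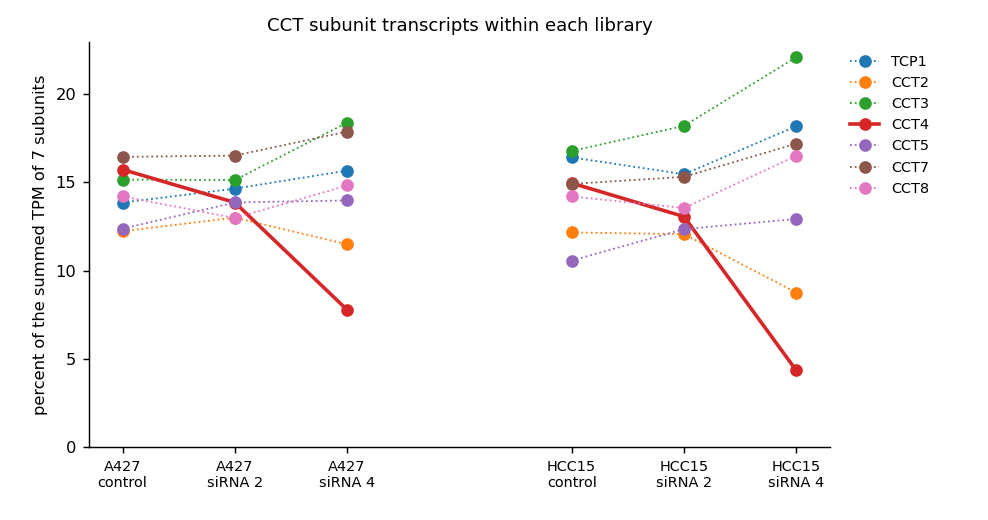
Share of each of the 7 member CCT subunit genes in their summed TPM (CCT6A is not among them), for the 3 libraries of each line. Points are single libraries and lines join the arms of 1 line. CCT4 drops to 7.78% in A427 and 4.35% in HCC15 with siRNA 4, below the other 6 plotted subunits.

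Comparing the siRNAs directly, 4 members were higher with siRNA 4 than with siRNA 2 (FKBP5, PTGES3, PPID and HSPA9) and 1, CCT4, was lower, beside 7.70% and 8.84% of all genes. All 10 co-chaperones had a positive difference, from 0.03 (FKBP4) to 1.35 (PTGES3), with 3 past the threshold. The sign was not particular to them. All 8 genes of HSP70 and its partners were also positive, and 27 of the 32 members, beside 50.4% of all genes. FKBP4 was the co-chaperone with the smallest difference. The genes of HSP70 and its partners ran from 0.00 (HSPA1B, interval -0.45 to 0.46) to 0.58 (DNAJA1).

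Between the lines, 11 members were higher in HCC15 and 6 lower, beside 37.2% and 39.3% of all genes. The balance of higher and lower members turned with the libraries used. It was 5 higher and 9 lower without the siRNA 4 library of either line, 16 and 5 without the siRNA 2 library of either line, and 4 and 5 without either control. All genes past the threshold were 76.5% with every library, 71.8% or 72.1% without a siRNA 4 library, 73.6% without a siRNA 2 library, and 66.2% or 66.0% without the A427 or the HCC15 control. HSPB1 was higher in A427, at 1154.98 to 1676.51 TPM over the 3 arms beside 379.80 to 544.48 in HCC15 (log2 fold change of HCC15 against A427 -1.45, SE 0.13). FKBP8 (-1.06, SE 0.09), PPID (-0.85, SE 0.13), AHSA1 (-0.66, SE 0.15), DNAJB1 (-0.65, SE 0.13) and FKBP4 (-0.39, SE 0.14) were also lower in HCC15, with the TPM of the lines overlapping for FKBP4. CHORDC1 (1.33, SE 0.15), BAG3 (1.32, SE 0.15) and FKBP5 (1.12, SE 0.13) were higher in HCC15, and only FKBP5 of these 3 had overlapping TPM. The 8 others that were higher there, HSP90AA1, HSPA8, HSPD1, HSPE1, STIP1, TCP1, CCT3 and CCT8, differed by 0.30 to 0.55. Among them HSP90AA1, HSPA8 and HSPD1 also had TPM that overlapped between the lines, though their CPM did not. The largest adjusted p among these 17 was 0.0430, for HSPA8 (edgeR). The order of TPM within a line was alike at the top, with HSP90AB1, HSP90AA1 and HSPA8 the highest by mean in both lines (3335, 2425 and 2388 TPM in A427, and 3007, 2885 and 2753 in HCC15). In HCC15 the SD over the 3 arms was 573, 200 and 300, and these 3 did not differ beyond it. FKBP5 had the lowest mean in both lines, 26.0 TPM in A427 and 53.8 in HCC15, and BAG3 and CHORDC1 were next in A427, at 54.4 and 55.7.

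**Figure D5:**
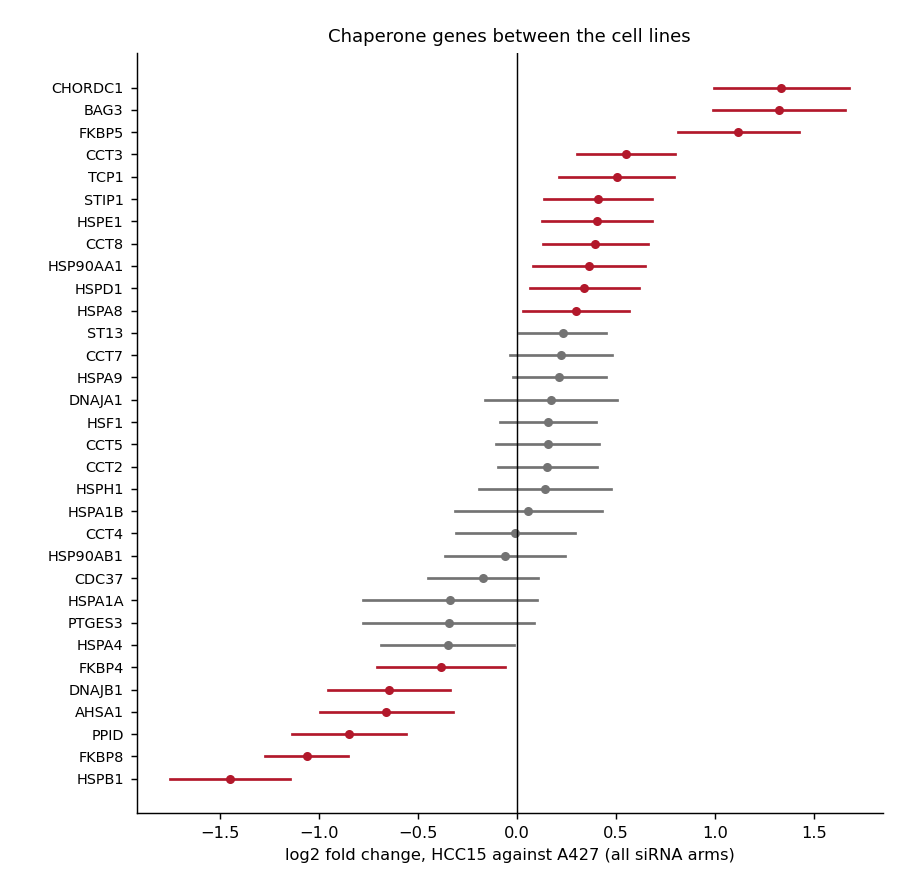
Fitted log2 fold change of HCC15 against A427 over all siRNA arms, with its unadjusted 95% interval, ordered by size. Red marks an adjusted p under 0.05 in edgeR. HSPB1 lies lowest at -1.45, and CHORDC1 and BAG3 highest at 1.33 and 1.32.

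Of 75 other chaperone genes, 74 were tested. With siRNA 2, 1 rose and 3 fell, beside 2.96% of all genes higher and 4.66% lower. With siRNA 4, 2 rose and 5 fell, beside 4.58% higher and 7.95% lower. The median change was 0.02 and 0.07. LONP1, a protease and chaperone of the mitochondrial matrix, rose with both. It stood at 72.7, 175.2 and 135.9 CPM in A427 and at 39.4, 93.6 and 105.4 in HCC15, a rise of 1.26 with siRNA 2 (SE 0.16) and 1.17 with siRNA 4 (SE 0.16). Those that fell with siRNA 2 were HSPB11 (-1.09), TOMM34 (-0.98) and PIH1D1 (-0.65), the latter 2 being partners of HSP90. With siRNA 4, TBCA, a tubulin-folding cofactor, rose by 0.51, and the largest decreases were those of HSPA4L (-1.81), an HSP110 gene, BAG4 (-1.69), DNAJB4 (-0.92) and NUDCD2 (-0.90). Each of these had an adjusted p of 0.0406 or less (edgeR). Of 12 genes of the glucocorticoid receptor and its targets, 10 were tested. With siRNA 2, 0 changed, beside 2.96% of all genes higher and 4.66% lower. There 3 (PER1, TSC22D3 and CEBPD) lay at an unadjusted p under 0.05, and 3563 genes in all did (edgeR). With siRNA 4, 0 rose and 3 passed as lower, beside 4.58% of all genes higher and 7.95% lower. They were the receptor gene NR3C1 (-0.53, SE 0.14), KLF9 (-0.95, SE 0.24) and TSC22D3 (-1.61). The adjusted p of NR3C1 and KLF9 was 0.0420 and 0.0353 (edgeR). TSC22D3 had 0 reads in every A427 library. Its values with either siRNA therefore rest on HCC15 alone, with 1 library per arm, and no spread between the lines lies behind them.

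RSEM divides reads that match several transcripts between them, so the split between near copies is uncertain. The share of 50-base stretches of a member's transcript that also occur in another gene's transcripts in GENCODE 29 was 30.7% for ST13, 11.9% for PTGES3, 3.57% for CHORDC1, 1.90% for FKBP4, 0.709% for FKBP5 and 0% for CCT4. It was 27.2% for HSPE1, 24.8% for HSPD1, 18.8% for HSP90AB1 and 17.5% for HSP90AA1.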

How the data were processed

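RNA of 6 libraries was sequenced, and 2 gene tables were deposited. The authors' expected counts and the authors' TPM came from RSEM 1.3.3 after STAR 2.5.3a alignment to hg19, with FastQC 0.11.1 named too, per the submitters' processing notes; no source used here gives the annotation. The deposited expected counts were rounded (5.75% to 6.29% of values were not whole), and genes reaching 10 reads in 2 or more libraries were tested with edgeR 4.0.16 (R 4.3.3, TMM scaling, quasi-likelihood test, Benjamini-Hochberg, threshold 0.05). The siRNA and line comparisons used a fit of line plus siRNA, the comparison of both siRNAs with the control a fit of line plus arm, and the difference in response line by arm. Intervals are 95% and unadjusted. The fits were also run on simulated counts with a fixed dispersion. Apart from planted changes, these held no siRNA effects that differed between lines, so they do not test the spread met here. Alternatives used DESeq2 1.42.0 and limma 3.58.1, other scaling and filters, TPM with pseudocounts 1 and 0.1, and each library left out. The siRNA number pairs libraries across lines as the same reagent, and the siRNA 4 minus siRNA 2 differences of the lines correlated at 0.513 across genes. The members, lists and tests were chosen with earlier results of these data known. All members may be named, and from other lists at most 4 genes past the threshold per direction or the 2 of smallest p; CEBPD was named after its values were seen. P-values measure only the spread between these libraries, which may be technical. Promoters are RefSeq's, on GRCh38.p14.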

Additional observations from a re-analysis of the deposited data

How the results depend on the processing

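The number of members past the threshold depended on the test and on single libraries. For both siRNAs against the control it was 0, with 1 by DESeq2 (2.60% of all genes). It was 4 when the fit of line plus siRNA was averaged over both siRNAs (8.96%). FKBP4 passed in those fits, at 1.84 and 1.82. For siRNA 2 it was 4 (7.62% of all genes), with 2 on log2(TPM + 0.1) (5.00%) and 0 to 5 when 1 library was left out: 0 without the HCC15 control (0.0276%), 1 without the A427 control (1.19%) or the HCC15 siRNA 2 library (1.5%), but 5 (9.25%) where the A427 siRNA 4 library was dropped. For siRNA 4 it was 3 (12.5%), with 5 by DESeq2 (12.5%), 5 with only the 4 libraries compared (14.4%), and 2 to 6 when 1 library was left out: 2 without the HCC15 control (0.815%) and 6 without the A427 siRNA 4 library (11.2%). For siRNA 4 against siRNA 2 it was 5 (16.5%), with 2 (4.46%) when the HCC15 siRNA 4 library was dropped and 8 (13.7%) when the A427 siRNA 2 library was. For HCC15 against A427 it was 17 (11 higher, 6 lower), with 9 to 21 when 1 library was left out, and lower members outnumbered higher ones without either control or either siRNA 4 library. The difference in response between the lines gave 0 in every alternative run. The 15 fold changes of single genes that were refitted kept their sign in the alternatives run. FKBP4 with siRNA 4 and CCT4 with siRNA 4 passed in 13 of 13 alternatives, FKBP4 with siRNA 2 in 12, FKBP5 in 10, PTGES3 in 9, CHORDC1 in 6 and ST13 in 5. Of 12 alternatives for siRNA 4 against siRNA 2, FKBP5 and CCT4 passed in 12, PTGES3 in 11, HSPA9 in 7 and PPID in 3. With 1 library for each line and siRNA, the spread of replicates is unknown.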
